A study of Mus musculus with 18 samples.

Results

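Endothelial preparations from mouse brain fell into 2 classes by their content of Fos mRNA, the transcript of an immediate early transcription factor. Fos was expressed as CPM, its count scaled to a common library total, and a library was placed in the high class at 3000 CPM or more and in the low class below it. The members were thus chosen by their measured Fos level. This gave 9 high and 9 low libraries of the 18 in the series. Fos spanned 3177 to 5413 CPM (median 4619) in the high class and 241 to 1402 CPM (median 563) in the low class. The library just inside the cut was hypoxia flox 2 at 3177 CPM and the one just outside was normoxia flox 2 at 1402 CPM. The classes were made from a measured transcript and are not treatment groups. Differences between them are therefore given as a description, with no p-value for the high minus low difference of a single gene. P-values are given for differences of that difference between genotypes or oxygen conditions, for KO against flox, and for class against label.

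The libraries came from a study of cerebral cavernous malformation, a disease of leaky, dilated brain vessels caused by loss of the adaptor proteins KRIT1, CCM2 or PDCD10. Mice carried loxP-flanked Pdcd10 (Pdcd10 fl/fl) and the astrocyte reporter Aldh1l1-EGFP/Rpl10a, and 50 µg of 4-hydroxytamoxifen was given into the stomach at postnatal day 1. KO mice also carried Slco1c1-iCreERT2, a tamoxifen-regulated Cre driven in brain endothelium, and flox littermates did not. The design text also counts uninjected Cre carriers among the controls without assigning them to libraries. Brain endothelial cells were isolated at postnatal day 57 after normoxia at 21% oxygen or 7 days of hypoxia at 12% oxygen. There were 4 normoxia flox, 5 normoxia KO, 4 hypoxia flox and 5 hypoxia KO libraries. The labels give no time, temperature or method of cell isolation for single libraries and no number of animals per library. The part of tissue handling in the results below was not tested, and p-values measure only the spread between these libraries.

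Immediate early genes are transcribed within minutes of a stimulus from promoters that already hold their activating factors, and they need no new protein synthesis. Fos, Jun, Egr and Nr4a proteins then switch on a delayed set of genes, among them phosphatases and RNA-binding proteins that shut the response down. In freshly isolated brain cells the same genes are well known to respond to enzymatic dissociation and warming, and in endothelium also to growth factors, flow and cytokines. Heat shock chaperones respond to unfolded protein through the factor HSF1, and endothelial adhesion molecules and chemokines respond to cytokines through NF-kB.

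The library totals ran from 19701159 to 28177622 counts in the high class and from 17931197 to 31193333 counts in the low class. Endothelial markers were abundant in every library, with 20 such genes summing to between 26058 and 29976 CPM in high and between 21364 and 34116 CPM in low libraries. The 21364 CPM was in normoxia flox 4, and every other low library, from 30121 CPM up, lay above every high library. These sums are shares of the library total, and that order depends on how libraries are scaled. Pdcd10 stood at 16.1 to 23.8 CPM in the 10 KO libraries and at 31.0 to 66.5 CPM in the 8 flox libraries, and it did not separate the Fos classes (log2 difference 0.00 ± 0.12, SE). Among low libraries, normoxia flox 4 and normoxia KO 4 carried neuronal RNA: the synaptic vesicle gene Syt1 was 848 and 465 CPM there, against at most 8.93 CPM elsewhere. Normoxia flox 3 also stood apart: it, normoxia flox 4 and normoxia KO 4 held both Xist and Y-linked transcripts, and all 3 were low Fos libraries.

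High libraries were found in all 4 groups. They made up 1 of 4 normoxia flox, 3 of 5 normoxia KO, 1 of 4 hypoxia flox and 4 of 5 hypoxia KO libraries. By genotype, 7 of 10 KO and 2 of 8 flox libraries were high (70.0% against 25.0%; two-sided Fisher's exact test, p = 0.153, n = 18). Without either of the high flox libraries, normoxia flox 1 or hypoxia flox 2, the difference of shares grew from 45.0 to 55.7 percentage points and p was 0.0498. Taking out 1 of only 2 high flox libraries raises this difference by construction, so nothing is read from that p. With any other single library left out, p of the same test was 0.0567 or 0.153. By oxygen, 5 of 9 hypoxia and 4 of 9 normoxia libraries were high (two-sided Fisher's exact test, p = 1, n = 18). The high class thus held more KO than flox libraries, a difference not called over all 18, and flox was represented in it by 2 libraries.

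The high class differed from the low class over a wide range of genes. In an edgeR quasi-likelihood model with the 4 groups as covariates, 2128 of 17531 tested genes were called higher (12.1%) and 2303 lower (13.1%) at a Benjamini-Hochberg adjusted p under 0.05. Because the class was cut on Fos, these shares serve as the background for the counts below and nothing more is read from them. The limma fit on RPKM split its calls as 1498 higher and 3855 lower. The higher side was the steeper one: 712 of the higher and 319 of the lower genes differed at least 2-fold, while the median of all tested genes was -0.06 on the log2 scale. Genes called higher made up 24.0% of all counts in the median high library and 14.2% in the median low library. A larger share in high libraries follows from how these genes were chosen. Among genes with a mean of at least 5 RPKM (reads scaled to gene length and library depth), those called higher had a median length of 5302 bases, those called lower 3002 bases, and all such tested genes 4172 bases. Log2 differences below come from this model, which scales libraries by TMM, and are given ± SE. CPM values are shares of the library total.

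The AP-1 subunits, the leucine zipper proteins that pair with or compete with FOS, were higher almost throughout. Of 15 tested members of this list, which includes Fos itself, 13 were called higher and none lower, with a median log2 difference of 1.88. In 10 of them every high library lay above every low library, which held for 1.64% of all tested genes. Fosb, a close relative of Fos, ran from 136 to 1230 CPM (median 260) in low and from 3461 to 6906 CPM (median 5788) in high libraries, a difference of 3.81 ± 0.56. Atf3, a stress-induced repressor of the same family, ran from 47.0 to 328 CPM (median 124) and from 999 to 1902 CPM (median 1695), a difference of 3.44 ± 0.47. The classes did not overlap for either gene, and within the low class the same 2 libraries, normoxia flox 2 and hypoxia flox 3, were at the top for both.

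Partners of Fos differed less. Jun, the main partner of FOS, reached 703 to 1574 CPM (median 877) in low and 1764 to 3738 CPM (median 2786) in high libraries, a difference of 1.63 ± 0.18. Junb stood at 102 to 1061 CPM (median 310) against 2035 to 2967 CPM (median 2340), a difference of 2.79 ± 0.53. Jund, often regarded as the constitutive member, was also apart (41.3 to 114 CPM against 256 to 317 CPM, 2.06 ± 0.20). Fosl2 differed by 2.23 ± 0.19 and the small Maf genes Maff and Mafk by 1.88 ± 0.13 and 1.71 ± 0.10, all without overlap. Mafg (0.14 ± 0.07) and Batf2 (-0.15 ± 0.38) were the 2 tested members not called.

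**Figure D1:**
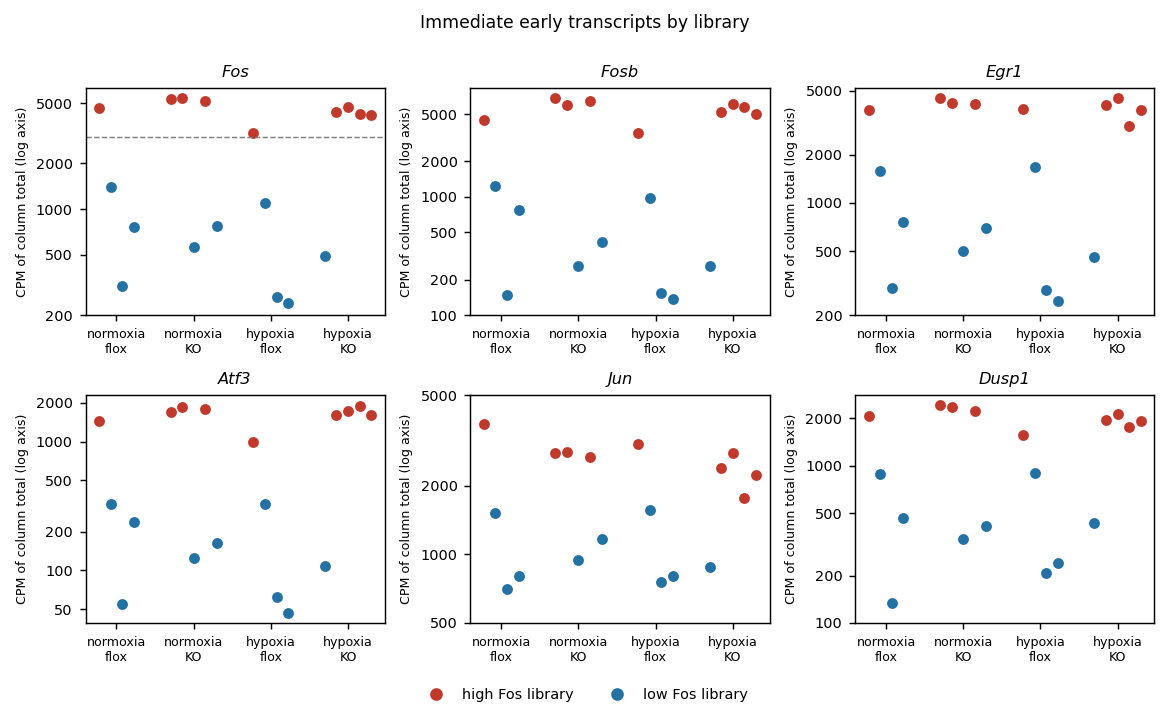
CPM of the column total on log axes for Fos, Fosb, Egr1, Atf3, Jun and Dusp1 in the 18 libraries, by group, with high Fos libraries in red and low in blue; the dashed line is the cut at 3000 CPM. Every high library lies above every low library in all 6 panels, and the only low hypoxia KO library sits with the low flox libraries.

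Zinc finger and orphan receptor genes of the same early class moved alike. In the list of EGR and NR4A factors, 8 of 10 tested members were called higher and none lower, with a median of 2.23, and 7 had no overlap. Egr3 ran from 12.2 to 88.3 CPM (median 23.6) in low and from 300 to 574 CPM (median 490) in high libraries, a difference of 4.02 ± 0.43. Egr1 ran from 246 to 1663 CPM (median 501) and from 2995 to 4523 CPM (median 4097), a difference of 2.73 ± 0.44. Among the orphan nuclear receptors, Nr4a1, Nr4a2 and Nr4a3 differed by 2.62 ± 0.31, 2.5 ± 0.32 and 3.08 ± 0.29. Srf, the factor that binds the serum response element of these genes, was itself higher by 1.13 ± 0.13. Egr4 (0.60 ± 0.92) and the EGR corepressor gene Nab1 (0.23 ± 0.09) were not called.

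Of 23 other immediate early genes, 19 were called higher and none lower, with a median of 1.51, and 15 had no overlap. Ccn1, a secreted matricellular protein, ran from 208 to 633 CPM (median 395) in low and from 1380 to 2673 CPM (median 2142) in high libraries, a difference of 2.46 ± 0.25. Btg2, an antiproliferative early gene, differed by 2.48 ± 0.25, the polo-like kinase gene Plk3 by 2.87 ± 0.36 and the small GTPase gene Rhob by 1.14 ± 0.12. Sik1, a salt-inducible kinase gene, differed by 1.26 ± 0.13. Of the early genes best known from neurons, Npas4 was at -0.75 ± 0.68 and Arc at 1.4 ± 0.59, and neither was called. The 49 genes of the 3 early lists together took 3.03% to 4.14% of all counts in the high and 0.472% to 1.47% in the low class. Fos, which set the classes, is part of that sum.

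The low class was not uniform. Normoxia flox 2 and hypoxia flox 3, with Fos at 1402 and 1090 CPM, also had the highest Egr1 of that class (1574 and 1663 CPM) and the highest Jun (1517 and 1574 CPM). The lowest low libraries were hypoxia flox 5, hypoxia flox 4 and normoxia flox 3, at 241, 265 and 309 CPM of Fos. Ranked by correlation with Fos over the 18 libraries after group means were removed, the 10 nearest genes were Atf3, Epha2, Nr4a1, Fosb, Zfp36, Ccn1, Egr1, Sowahc, Socs3 and Jund. The libraries form separate classes, so no coefficient is given. Epha2, an ephrin receptor gene, differed by 1.46 ± 0.16, and Sowahc by 1.88 ± 0.24.

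Promoters of these genes are shown for matches to an NF-kB site, a cyclic AMP response element or a CArG box. Sequences are RefSeq promoters of GRCm38.p6, read 5′ to 3′ on the gene's strand and counted back from the annotated start, and the capitals mark a motif match. Fos is shown for bases -250 to -1 (chr12:85473640-85473889, plus strand), with an NF-kB site in capitals. Only full matches within 250 bases were searched, so partial sites and sites further upstream are not marked. Dusp1 and Btg2 are shown for bases -200 to -81 (chr17:26508553-26508672 and chr1:134079236-134079355, minus strand), each with a cyclic AMP response element. Dusp5 (chr19:53529025-53529144, plus strand) and Zfp36 (chr7:28379229-28379348, minus strand) are shown for bases -120 to -1, with CArG boxes, the core that SRF binds. In Dusp5 a pair of CArG boxes abut, at 82 to 73 and 72 to 63 bases upstream of the start.
Fos: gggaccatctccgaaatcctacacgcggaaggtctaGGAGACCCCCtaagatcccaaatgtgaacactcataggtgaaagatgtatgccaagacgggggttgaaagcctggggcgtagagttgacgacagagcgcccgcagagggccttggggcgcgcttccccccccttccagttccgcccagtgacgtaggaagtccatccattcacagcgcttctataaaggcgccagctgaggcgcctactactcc
Dusp1: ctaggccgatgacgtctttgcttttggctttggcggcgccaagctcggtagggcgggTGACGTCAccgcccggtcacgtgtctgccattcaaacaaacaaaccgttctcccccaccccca
Btg2: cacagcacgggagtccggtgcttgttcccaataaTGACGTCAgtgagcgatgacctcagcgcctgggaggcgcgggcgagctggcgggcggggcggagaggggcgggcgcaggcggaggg
Dusp5: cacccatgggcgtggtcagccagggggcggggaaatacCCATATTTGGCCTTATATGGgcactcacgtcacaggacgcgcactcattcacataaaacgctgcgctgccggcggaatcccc
Zfp36: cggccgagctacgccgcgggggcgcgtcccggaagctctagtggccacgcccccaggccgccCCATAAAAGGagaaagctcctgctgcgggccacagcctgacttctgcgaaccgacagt

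Motif matches were counted on both strands in the 250 bases before the start, for 11703 of the 17531 tested genes that had a RefSeq promoter. The full cyclic AMP response element, TGACGTCA, was present in 3.67% of genes called higher, in 2.59% of all tested genes and in 1.6% of all 27025 promoters in the table. It was present in 5 of the 50 promoters (10%) of the 3 early lists and the DUSP and Sprouty list. The CArG box was present in 1.4% of genes called higher and 1.17% of all tested genes, and in 2 of those 50 promoters. TGANTCA, the AP-1 site, was in 4.80% of genes called higher against 4.34% of all tested, and in none of the 50. An NF-kB site was in 5.20% of genes called higher, in 4.35% of all tested and in 6 of the 50 (12%). CCAAT was as frequent in genes called higher (35.8%) as in all tested genes (36.2%). These are matches of letters in a short window and do not show binding.

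Feedback inhibitors of the same pathways were higher together with their inducers. DUSP and Sprouty proteins, which dephosphorylate MAP kinases or block their activation, had 12 of 15 tested members called higher and none lower, with a median of 0.86. Dusp1, a nuclear phosphatase gene, ran from 134 to 892 CPM (median 410) in low and from 1558 to 2423 CPM (median 2070) in high libraries, a difference of 2.32 ± 0.38. Dusp5, an ERK-specific phosphatase gene, ran from 1.63 to 9.36 CPM (median 3.69) and from 42.6 to 94.5 CPM (median 55.5), a difference of 3.68 ± 0.37. Dusp6 (1.58 ± 0.19), Dusp10 (2.03 ± 0.24) and Spry4 (1.64 ± 0.13) also had no overlap. Spred1 (0.19 ± 0.10), Spred3 (-0.01 ± 0.17) and Dusp14 (-0.30 ± 0.43) were not called.

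RNA-binding proteins and signalling inhibitors that limit cytokine output formed a similar picture, with 12 of 17 tested members called higher, none lower and a median of 0.77. Zfp36, which encodes the protein tristetraprolin that destroys mRNAs with AU-rich elements, ran from 111 to 523 CPM (median 168) in low and from 1585 to 2290 CPM (median 1994) in high libraries, a difference of 3.32 ± 0.34. The NF-kB inhibitors Nfkbia and Tnfaip3 differed by 1.75 ± 0.16 and 2.69 ± 0.29, and the cytokine signalling suppressors Socs1 and Socs3 by 2.62 ± 0.43 and 2.60 ± 0.38. Cyld, a deubiquitinase gene, did not differ measurably (-0.02 ± 0.12), nor was Socs2 called (0.08 ± 0.08).

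Of 12 Kruppel-like factors, 8 were called higher and none lower, with a median of 0.80. Klf4 ran from 446 to 1569 CPM (median 749) in low and from 1643 to 3426 CPM (median 2836) in high libraries, a difference of 1.75 ± 0.26. Klf2, its flow-responsive relative, differed by 1.03 ± 0.11 but overlapped: low libraries lay between 470 and 887 CPM, and high hypoxia flox 2 stood at 812 CPM while the other high libraries reached 1220 to 1804 CPM. KLF2 and KLF4 are mediators of vascular malformation in this disease model, and both transcripts moved with the Fos class. KO minus flox was called higher for Klf2 in every alternative fit, with or without the class (0.51 to 1.15). For Klf4 it was called only without the class (edgeR quasi-likelihood test, adjusted p = 0.0481). Klf6 (1.38 ± 0.09) and Klf10 (1.67 ± 0.19) had no overlap, and Klf3 (0.14 ± 0.10) and Klf13 (0.20 ± 0.11) were not called.

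Many inflammatory mediators were higher. Of 20 tested cytokine and chemokine genes, 13 were called higher and none lower, with a median of 1.73. Without the single low hypoxia KO library, hypoxia KO 1, 8 were called. Cxcl2, a neutrophil-attracting chemokine gene, ran from 0.459 to 7.47 CPM (median 2.18) in low and from 17.6 to 78.8 CPM (median 64.6) in high libraries, a difference of 4.47 ± 0.59. Its relative Cxcl1 differed by 3.11 ± 0.45 (3.17 to 43.6 CPM against 115 to 226 CPM). Normoxia flox 1 was the lowest high library for Cxcl2, and the other 8 stood at 54.7 CPM or more. Il6, the gene of an acute-phase cytokine, was scarce: 0 to 0.492 CPM in low and 1.02 to 7.91 CPM in high libraries, a difference of 3.83 ± 0.48. Tnf differed by 2.67 ± 0.45, and its classes overlapped slightly, at 0.0918 to 2.81 CPM and 2.39 to 23.6 CPM. Cxcl12, a homeostatic chemokine gene with 1945 to 3657 CPM across libraries, was the same to within its error (-0.01 ± 0.11).

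Lymphocyte markers summed to 8.07 to 71.9 CPM (median 49.7) in high and 6.47 to 28.9 CPM (median 16.7) in low libraries, and 10 of 17 tested members were called higher, or 4 without hypoxia KO 1. Neutrophil markers summed to 0.819 to 113 CPM in high and 1.06 to 3.01 CPM in low libraries, and 0 of 3 tested members were called by edgeR. Their highest value, 113 CPM, was in hypoxia KO 4, which also had the highest Il1b at 44.5 CPM against 0.263 to 8.21 CPM elsewhere. Il1b, the gene of the inflammasome cytokine, was not called (2.17 ± 0.80). The part of blood cells in the cytokine values was not tested, and in bulk libraries more cells of a type and more RNA per cell cannot be told apart.

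Leukocyte adhesion genes were called higher in part. Of 11 tested, 4 were called higher and 1 lower, with a median of -0.04. Sele, E-selectin of activated endothelium, ran from 0.597 to 14.7 CPM (median 4.41) in low and from 21.1 to 161 CPM (median 34.1) in high libraries, a difference of 3.72 ± 0.49. Icam1 ran from 79.9 to 338 CPM (median 120) and from 658 to 1139 CPM (median 885), a difference of 2.69 ± 0.33. Vcam1 differed by 0.92 ± 0.14 with overlap (198 to 435 CPM against 375 to 672 CPM). Selp, P-selectin, was also called higher (1.91 ± 0.52), a call lost without normoxia flox 1 or hypoxia KO 1. Icam2 was the member called lower (-0.22 ± 0.07). Pecam1 (-0.01 ± 0.07), F11r (-0.04 ± 0.07), Esam (-0.12 ± 0.09), Jam2 (-0.14 ± 0.10), Cd99l2 (-0.31 ± 0.14) and Alcam (-1.42 ± 0.71) were not called.

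NF-kB subunits and adaptors had 8 of 14 tested members called higher and 1 lower, with a median of 0.37. Rel, the inducible subunit c-Rel, ran from 7.33 to 25.3 CPM in low and from 43.7 to 90.1 CPM in high libraries, a difference of 2.33 ± 0.17. Irf1, an early interferon regulatory factor gene, differed by 1.70 ± 0.18 without overlap. Rela, the main activating subunit, differed by 0.34 ± 0.09, and Nfkb1 by 0.10 ± 0.07, which was not called. In the list of prostaglandin, nitric oxide and endothelin genes 4 of 12 were called higher and 2 lower. Ptgs2, inducible cyclooxygenase, ran from 8.53 to 168 CPM (median 31.4) in low and from 52.8 to 283 CPM (median 88.8) in high libraries, a difference of 2.66 ± 0.42 with overlap. Ptgis, prostacyclin synthase, was lower by a log2 difference of -0.80 ± 0.16, and Nos3, endothelial nitric oxide synthase, by -0.28 ± 0.07.

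**Figure D2:**
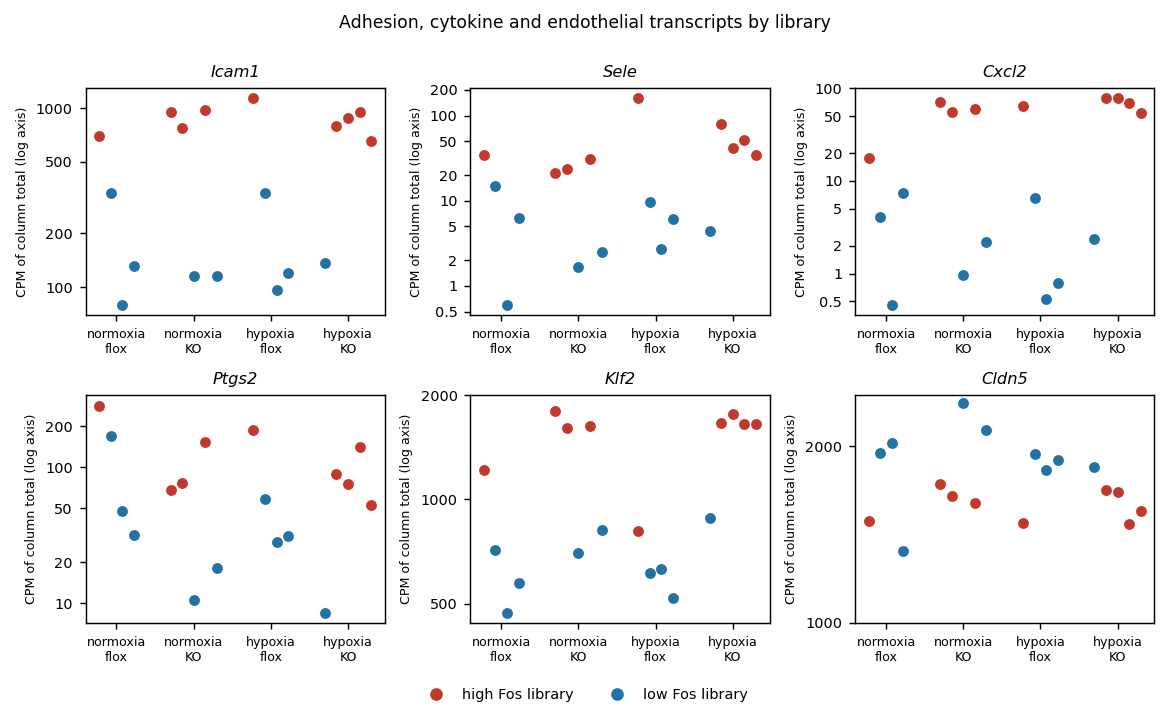
CPM of the column total on log axes for Icam1, Sele, Cxcl2, Ptgs2, Klf2 and Cldn5 by group, high Fos libraries in red and low in blue. Icam1, Sele and Cxcl2 separate the classes, Ptgs2 and Klf2 overlap, and the tight junction gene Cldn5 spans 1329 to 2374 CPM over all libraries.

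Promoters of 4 of these genes are shown for their NF-kB or AP-1 matches, each for bases -120 to -1. They lie at chr5:90903779-90903898 (Cxcl2, plus strand), chr5:30012994-30013113 (Il6, plus strand), chr12:55492648-55492767 (Nfkbia, minus strand) and chr1:164048114-164048233 (Sele, plus strand). Capitals mark an NF-kB site in Cxcl2, Il6 and Nfkbia, where those of Cxcl2 are a pair of overlapping matches, and an AP-1 site in Sele.
Cxcl2: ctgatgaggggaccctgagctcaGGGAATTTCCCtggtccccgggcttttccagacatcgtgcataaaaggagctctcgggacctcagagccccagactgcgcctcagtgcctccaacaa
Il6: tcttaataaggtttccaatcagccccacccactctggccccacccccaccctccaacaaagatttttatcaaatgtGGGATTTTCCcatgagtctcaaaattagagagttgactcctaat
Nfkbia: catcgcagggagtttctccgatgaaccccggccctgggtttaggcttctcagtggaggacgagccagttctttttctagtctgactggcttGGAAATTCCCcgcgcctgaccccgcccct
Sele: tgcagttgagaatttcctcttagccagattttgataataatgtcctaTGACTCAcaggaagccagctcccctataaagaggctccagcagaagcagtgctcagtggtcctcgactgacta

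In the cytokine, adhesion, NF-kB and cytokine feedback lists 13 of 42 promoters (31.0%) held an NF-kB site, against 5.20% of genes called higher, 4.35% of all tested genes and 3.74% of all promoters. An AP-1 site was in 9 of the 42 (21.4%). These lists were assembled around known NF-kB genes, so their share is no independent evidence.

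Secreted proteases and matrix genes were also part of the high class profile. Of 16 tested early targets, 9 were called higher and none lower, with a median of 0.86. Adamts1, a protease that cleaves the proteoglycan versican, ran from 225 to 1059 CPM (median 459) in low and from 1625 to 2715 CPM (median 2344) in high libraries, a difference of 2.15 ± 0.28. Thbs1, the angiogenesis inhibitor thrombospondin, differed by 1.84 ± 0.29 and the growth factor gene Hbegf by 1.82 ± 0.22, both without overlap. Plaur, the urokinase receptor, differed by 1.67 ± 0.16 with overlap. Thbd, the anticoagulant receptor thrombomodulin (0.11 ± 0.10), Timp3 (-0.01 ± 0.16) and Pdgfb (-0.08 ± 0.11) were not called.

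Chaperone genes were higher in part. Of 23 tested, 13 were called higher and none lower, with a median of 0.74, and 4 had no overlap. Dnajb1, the HSP40 partner of HSP70, ran from 71.4 to 187 CPM (median 92.8) in low and from 318 to 537 CPM (median 481) in high libraries, a difference of 2.31 ± 0.20. Hspa8, the constitutive HSP70, ran from 1050 to 1902 CPM (median 1511) and from 2858 to 3207 CPM (median 3065), a difference of 1.18 ± 0.12. Hspa5, the HSP70 of the endoplasmic reticulum, differed by 1.06 ± 0.16, also without overlap. The mitochondrial HSP70 gene Hspa9 (-0.02 ± 0.05), Hspa4 (0.09 ± 0.05) and Hsf1, the heat shock factor (-0.14 ± 0.06), were not called.

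The stress-inducible chaperones divided the high class itself. Hspa1a, the main inducible HSP70, reached its highest values in the 2 high flox libraries, 9296 CPM for normoxia flox 1 and 9375 CPM for hypoxia flox 2. In the 7 high KO libraries it lay between 902 and 3534 CPM, within or below the 1974 to 4077 CPM of the low class. Its near-identical copy Hspa1b, which can share reads with it, gave 13423 and 13701 CPM against 1126 to 5598 CPM in high KO libraries. Hspe1, the small subunit of the mitochondrial chaperonin, stood at 57.3 and 71.5 CPM in high flox, at 12.2 to 22.8 CPM in high KO, at 31.4 to 39.9 CPM in low KO and at 20.9 to 30.7 CPM in low flox libraries. High libraries were thus above low ones for Hspe1 in flox and below them in KO, with no overlap in either genotype.

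A test of whether the high minus low difference was of another size in KO than in flox called 4 genes (0.0228% of those tested), all with a smaller difference in KO, and none in the other direction. An unadjusted p under 0.05 was reached by 897 genes. In simulated counts of this design, 54.0% of 2-fold and 91.0% of 4-fold interactions with genotype were recovered, so some could be missed. The changed genes in that simulation were drawn from the more abundant ones. Hspe1 differed by 1.34 ± 0.17 between classes in flox and by -0.88 ± 0.15 in KO, an interaction of -2.23 ± 0.23 (edgeR quasi-likelihood test, adjusted p = 0.00181). Gm48565, a gene model next to Hspa8 in the GENCODE M21 annotation, had an interaction of -2.47 ± 0.30 (adjusted p = 0.00505). The unnamed model ENSMUSG00000121177 had one of -2.37 ± 0.28 (adjusted p = 0.0044). The other, Gm20005, neighbours Hsph1 on the opposite strand and was listed at 0 in 6 of 7 high KO libraries, so that its fitted size depends on the prior count (adjusted p = 0.00967). It was not called without the 2 neuronal libraries (adjusted p = 0.0533). Leaving out normoxia flox 1 left 1 gene called and leaving out hypoxia flox 2 left 2. Hspe1 was called without any single library, whereas DESeq2 called 41 genes (21 larger and 20 smaller in KO) and the fit with the replicate number as a block called none.

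Hspa1a and Hspa1b had interactions of -2.38 ± 0.40 (edgeR quasi-likelihood test, adjusted p = 0.0754) and -2.44 ± 0.46 (adjusted p = 0.132). Without hypoxia KO 4, the library with the lowest Hspa1a, they were -2.28 and -2.33 with an adjusted p of 1.16e-04 for each. The chaperonin partner gene Hspd1, which lies head to head with Hspe1, had -0.93 ± 0.18 (adjusted p = 0.148) and the small heat shock protein gene Hspb1 -1.19 ± 0.26 (adjusted p = 0.324). Dnajb1 by contrast differed between classes by 2.26 ± 0.29 in flox and 2.35 ± 0.31 in KO, and Hspa8 by 1.07 ± 0.17 and 1.26 ± 0.17. The high flox class rests on 1 library in each oxygen condition.

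The Hspe1 promoter is shown for bases -150 to -31 (chr1:55087998-55088117, GRCm38.p6, plus strand), with a pair of overlapping heat shock elements in capitals.
Hspe1: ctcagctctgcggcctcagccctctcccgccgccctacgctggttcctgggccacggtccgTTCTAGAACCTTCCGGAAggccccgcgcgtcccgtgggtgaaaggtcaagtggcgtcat
The heat shock element, was present in 1 of 17 chaperone promoters with a sequence, in 0.267% of genes called higher and in 0.273% of all tested genes.

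**Figure D3:**
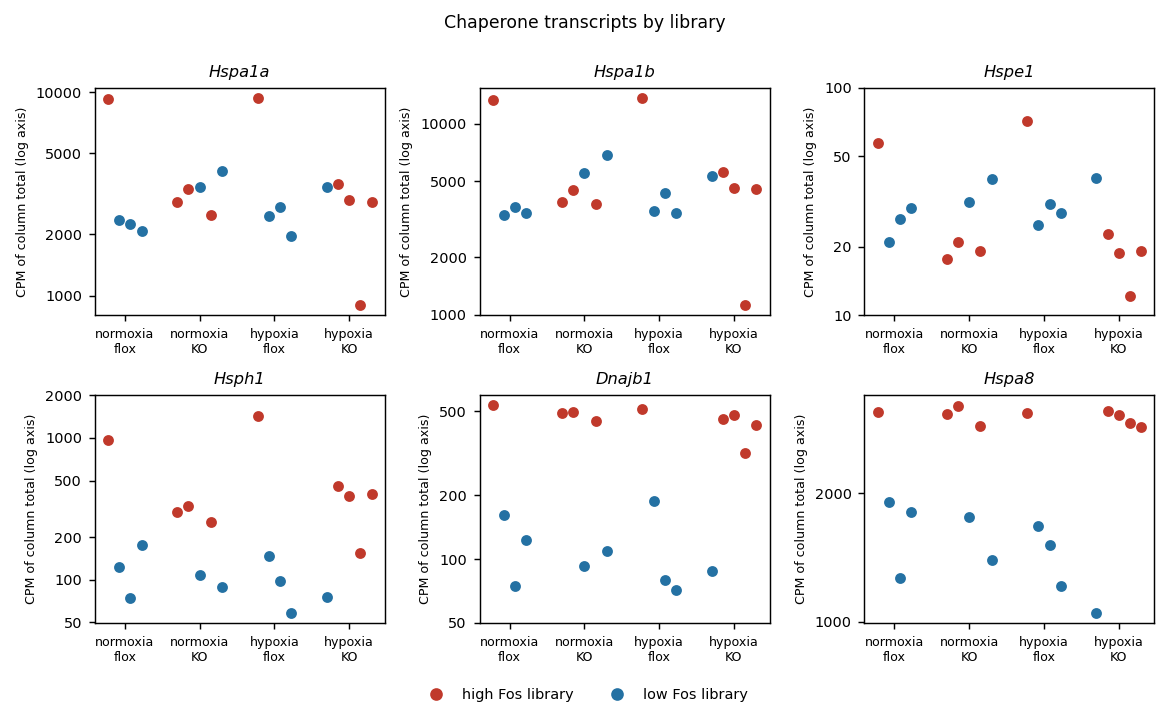
CPM of the column total on log axes for 6 chaperone genes by group, high Fos libraries in red and low in blue. Dnajb1 and Hspa8 separate the classes in every group, whereas Hspa1a and Hspa1b stand apart in the 2 high flox libraries and Hspe1 is above the low libraries in flox and below them in KO.

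The unfolded protein and integrated stress response list had 9 of 18 tested members called higher and 1 lower, with a median of 0.13. Atf4, the central factor of the integrated stress response, differed by 1.16 ± 0.20, and Ddit3, its target CHOP, by 1.26 ± 0.27. Sesn2, a stress-inducible metabolic regulator gene, differed by 1.35 ± 0.14 and Dnajb9, a chaperone gene of the endoplasmic reticulum, by 1.17 ± 0.13, both without overlap. Of other targets of the same pathways, Xbp1 was at -0.03 ± 0.10, Asns at -0.35 ± 0.21 and Creld2 at -0.16 ± 0.07, none called, and Trib3 was called lower at -0.42 ± 0.10. Glucocorticoid-responsive genes had 5 of 13 called higher. Sgk1, a kinase gene that serum also induces, differed by 2.24 ± 0.31 and the clock gene Per1 by 1.06 ± 0.12, while Tsc22d3 (0.16 ± 0.11) and Fkbp5 (-0.33 ± 0.39), which respond to the hormone, were not called.

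Endothelial identity was far steadier, gene by gene, than the early response. By CPM without TMM scaling, the sum of its markers was nonetheless lower in every high library than in any low library except normoxia flox 4. High hypoxia KO 4 stood at 29976 CPM with a TMM factor of 0.912, and low hypoxia flox 3 at 30368 CPM with 1.08. Dividing by these factors reverses their order, so the scaled sums do not separate the classes. Of 20 pan-endothelial markers none was called higher and 3 lower, with a median of -0.10, and Cdh5 (0.01 ± 0.08), Erg (0.13 ± 0.09) and Tek (-0.02 ± 0.10) were not called. Of 25 blood-brain barrier genes, 1 was called higher and none lower, with a median of 0.06. It was Foxq1, a forkhead factor gene (0.50 ± 0.11), and the barrier transporter genes Slc2a1 (0.00 ± 0.11), Mfsd2a (0.14 ± 0.14) and Abcb1a (0.04 ± 0.09) were not called. The receptor gene Tie1 (-0.37 ± 0.09) and the von Willebrand factor gene Vwf (-0.54 ± 0.14) were called lower. Cldn5, the main tight junction gene of brain endothelium, was called lower by a small margin (-0.23 ± 0.08). It ran from 1477 to 1728 CPM in high libraries and from 1329 to 2374 CPM in low ones, where normoxia flox 4, 1 of the libraries with neuronal RNA, held the 1329 CPM. The Cldn5 call was lost in 16 of the 18 fits that left out a library, with differences of -0.18 to -0.28.

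**Figure D4:**
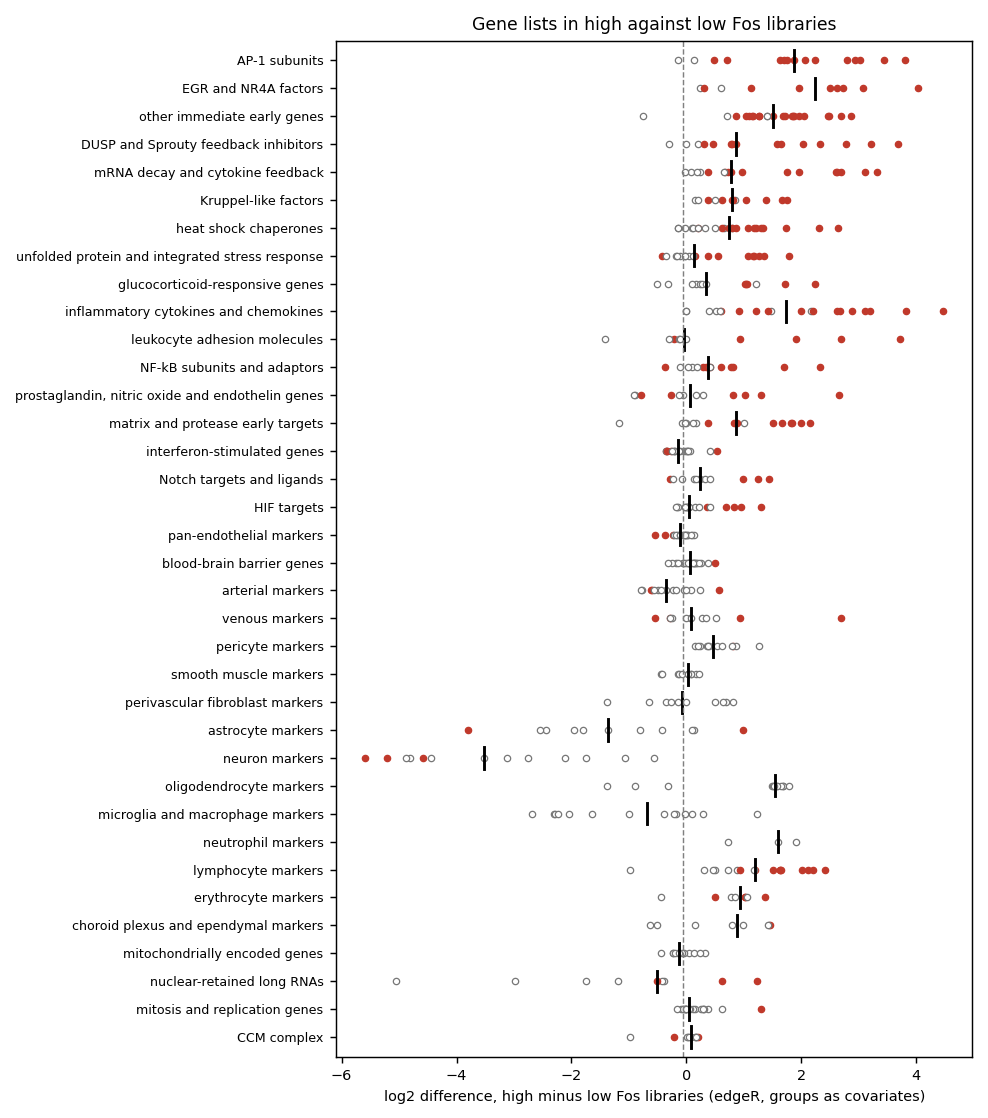
Log2 difference of high minus low Fos libraries for each tested member of 36 gene lists; filled red points were called at an adjusted p under 0.05, open points were not, black bars are list medians and the dashed line is the median of all genes. The medians of the early, feedback, cytokine and chaperone lists lie to the right. So do those of the neutrophil, oligodendrocyte, lymphocyte, erythrocyte and choroid plexus lists, among others. The pan-endothelial and barrier medians lie near the line, and the neuron, astrocyte, microglia and arterial medians are among those to the left.

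Other programs of endothelium had some members called, against 25.3% of all tested genes called in either direction. Interferon-stimulated genes had 1 of 20 called higher and 3 lower, with a median of -0.14, and the number lower ranged from 0 without normoxia KO 6 or hypoxia flox 2 to 5 without hypoxia KO 4, with 1 without normoxia flox 1 or normoxia KO 4. The higher call was lost without normoxia flox 1 or hypoxia KO 1. Isg15 (-0.12 ± 0.10), a standard marker of that response, was not called. Targets of hypoxia-inducible factor had 5 of 18 called higher with a median of 0.05, or 3 when normoxia KO 4, 5 or 6, hypoxia flox 2 or hypoxia KO 1 was left out. Pfkfb3, a regulator of glycolysis, was the member without overlap (0.94 ± 0.16), and Ldha (0.01 ± 0.07), Pgk1 (-0.15 ± 0.16) and Bnip3 (-0.19 ± 0.12) were not called. Of 12 Notch genes 3 were called higher, the ligand gene Dll4 (1.25 ± 0.15) and the targets Hes1 (1.43 ± 0.23) and Nrarp (0.99 ± 0.22), while Hey1 (0.24 ± 0.16) and Jag1 (0.17 ± 0.12) were not. The receptor gene Notch4 was called lower (-0.28 ± 0.10), a call lost in 13 of the 18 fits that left out a library. The 15 arterial markers had a median of -0.35 with 1 called higher and 2 lower. The number lower ranged from 0 without hypoxia KO 1 to 5 without normoxia flox 4, with 4 without normoxia flox 1 or hypoxia flox 5. Of 20 mitosis and replication genes only Pcna, the sliding clamp of DNA polymerase, was called (1.29 ± 0.11). It ran from 36.1 to 64.6 CPM in low and from 82.4 to 108 CPM in high libraries.

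Markers of cell types other than endothelium and blood had few calls, but their medians were not all near that of all genes. Median log2 differences were 1.55 for oligodendrocyte, 0.89 for choroid plexus and ependymal and 0.46 for pericyte markers. They were -1.37 for astrocyte, -0.69 for microglia and macrophage, -0.08 for perivascular fibroblast and 0.02 for smooth muscle markers. None of 11 smooth muscle, 10 perivascular fibroblast or 14 microglia and macrophage markers was called by edgeR. Neuron markers had a median of -3.52 with 3 of 13 called lower, but without normoxia flox 4 and normoxia KO 4 the median was -0.05 and none of 11 was called. The number lower was also 0 without normoxia flox 1 or normoxia KO 4 alone and 8 without hypoxia flox 2. Their summed level was 41.6 to 114 CPM in the high class, and in the low class 49.7 to 125 CPM apart from 3343 and 1790 CPM in those 2 libraries. Oligodendrocyte markers summed to 1535 to 5157 CPM in high and 662 to 5495 CPM in low libraries, with none of 12 called, or 4 called higher without the 2 neuronal libraries. Leaving out normoxia flox 4 alone also gave 4, and leaving out hypoxia flox 3 gave 8. Pericyte markers summed to 967 to 2196 CPM in high and 250 to 1467 CPM in low libraries, and 1 of 12 was called higher, a count that ran from 0 to 5 as single libraries were left out. Choroid plexus and ependymal markers summed to 144 to 999 CPM in high and 45.9 to 416 CPM in low libraries. Of these, 1 of 8 was called higher, or 0 to 3 as single libraries were left out. Erythrocyte markers summed to 1985 to 7796 CPM and 1192 to 5169 CPM, with 4 of 8 called higher, 1 without hypoxia KO 1 and 7 without hypoxia flox 2. Their part in the early, cytokine and chaperone results was not tested. Without the 2 neuronal libraries, 12 of 15 AP-1 subunits, 9 of 10 EGR and NR4A factors, 15 of 20 cytokines and 15 of 23 chaperones were called higher.

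Genes on the lower side had smaller differences. The 8 lowest under the naming rule included the neuronal genes Fam163b, Fbxo41 and Rims1, which were at 19.4, 22.1 and 42.1 CPM in their highest low library and under 1 CPM in every high library. Fam163b was at -4.29 ± 1.17, or -1.08 and not called without the 3 libraries that held both Xist and Y-linked transcripts. The mitochondrial ribosomal RNAs were lower as well: mt-Rnr2 ran from 1321 to 17873 CPM in low and from 679 to 1689 CPM in high libraries, a difference of -3.10 ± 0.42, and mt-Rnr1 differed by -2.70 ± 0.38. These are not mRNAs, and their level in libraries of polyadenylated RNA need not follow that of the cell. None of 13 mitochondrially encoded protein genes was called. Gpr17, a receptor gene known from oligodendrocyte precursors, was at 4.33 to 39.8 CPM in low and 1.06 to 3.49 CPM in high libraries (-2.51 ± 0.46). Overlap was judged on CPM of the library total, without TMM scaling. The median TMM factor was 0.953 in high and 1.06 in low libraries, so unscaled CPM runs lower in high libraries than scaled CPM. The part of this scaling in the counts of genes without overlap was not tested. By unscaled CPM, 287 genes lay wholly above in high libraries, and high libraries lay wholly below low libraries for 579 genes (3.3%). The genes that ran most nearly opposite to Fos were of this kind and differed by little: Dus3l (-0.44 ± 0.06), Stx4a (-0.40 ± 0.07), Rbx1 (-0.36 ± 0.06), Tpra1 (-0.43 ± 0.07) and Nelfcd (-0.57 ± 0.09).

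The class difference was then compared between the oxygen conditions. A test of whether it was of another size in hypoxia than in normoxia called 0 genes with edgeR and 0 with DESeq2, and 680 genes had an unadjusted p under 0.05 in edgeR. Icam1 differed by 2.67 ± 0.47 in normoxia and 2.71 ± 0.50 in hypoxia, and Sele by 3.09 ± 0.65 and 4.30 ± 0.68. In simulated counts of this design, 53.0% of 2-fold and 87.0% of 4-fold interactions were recovered, so interactions of these sizes and smaller ones could be missed. The changed genes were drawn from the more abundant ones, so these shares do not cover scarce transcripts.

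Because 7 of 10 KO but 2 of 8 flox libraries were high, the class bears on the comparison of genotypes that the study was built for. KO minus flox, averaged over oxygen, called 5746 genes with the Fos class in the model (32.8%) and 5961 without it (34%). With the class, 3020 were higher and 2726 lower, against 2298 and 3447 in the limma fit on RPKM. Of these, 4685 were called in both, all in the same direction, 1061 only with the class and 1276 only without it. Among members of the gene lists, 66 changed their call, 23 gaining and 43 losing it when the class was added. The counts of calls were close, and the genes behind them differed in part.

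The class was cut on Fos, and the early genes separate by it, so that adding it to the model lowers their genotype difference by construction. The values are a description of that. The median KO minus flox difference of AP-1 subunits was 0.91 without and 0.05 with the class, that of EGR and NR4A factors 0.75 and -0.13, and that of other immediate early genes 0.70 and -0.05. No EGR or NR4A factor was called in either fit. Cytokines and chemokines had 11 of 20 called higher without and 6 with the class, and their median was 1.73 and 0.64. Lymphocyte markers went from 14 to 7 of 17 called higher. Arterial markers were lower in 14 of 15 in either fit and smooth muscle markers in 9 of 11. Other lists of cell type markers moved, the oligodendrocyte median from 0.91 without to -0.05 with the class, the neuron median from -0.79 to 0.26 and the microglia median from 0.52 to 1.24, and pericyte markers called higher fell from 8 to 4 of 12.

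The 10 genes named by the rule for a changed call had lower KO minus flox values with the class than without it. Each was at a higher level in the high class, so the class lowers their value by construction, as for the early genes. They were also picked because the call changed. Their adjusted p-values describe the 2 fits and are not read as new genotype effects. Ptgs2 differed between genotypes by -0.42 ± 0.63 without the class (edgeR quasi-likelihood test, adjusted p = 0.661) and by -1.73 ± 0.41 with it (adjusted p = 0.00471). Csf3, a granulocyte growth factor gene at no more than 2.16 CPM, went from -0.59 ± 0.70 (adjusted p = 0.566) to -1.61 ± 0.42 (adjusted p = 0.00635), which was -1.28 and not called without normoxia flox 1 (adjusted p = 0.177). Its call was also lost with DESeq2 (adjusted p = 0.0581), the legacy quasi-likelihood fit (0.0567), the replicate block (0.0513) and limma on RPKM (0.0753). Chac1, a glutathione-degrading enzyme gene of the integrated stress response, went from -0.63 ± 0.42 (adjusted p = 0.267) to -1.34 ± 0.20 (adjusted p = 1.08e-04). The ERK inhibitor gene Spry2, the plasminogen activator gene Plat and the co-chaperone gene Dnaja4 likewise gained a lower call, at -0.74 ± 0.18, -0.86 ± 0.17 and -0.41 ± 0.07. In all 6 the high class had higher levels and KO libraries were more often high.

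Calls were lost on the higher side. Il1b was 3.34 ± 0.74 higher in KO without the class (edgeR quasi-likelihood test, adjusted p = 0.00268) and at 2.15 ± 0.85 with it (adjusted p = 0.0655). It was called with the class when hypoxia KO 1 (2.61, adjusted p = 0.0303) or hypoxia KO 4 (1.69, adjusted p = 0.0139) was left out. Nkg7, a gene of cytotoxic lymphocytes, went from 3.21 ± 0.84 (adjusted p = 0.00515) to 2.25 ± 0.89 (adjusted p = 0.055), and was called with the class in 7 of the fits that left out a library, at 1.72 to 3.29. Whether the class reflects handling of the preparations or a property of KO tissue cannot be told apart from these labels.

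**Figure D5:**
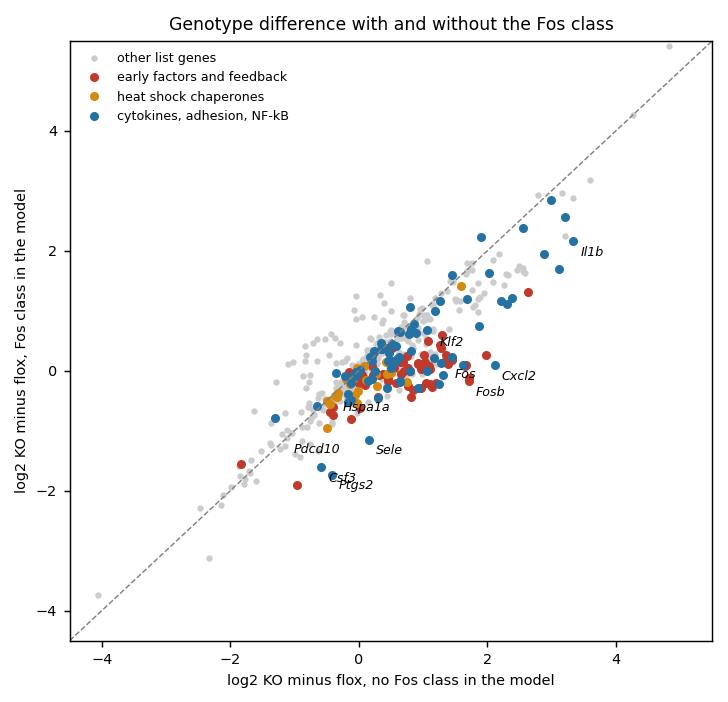
Log2 difference of KO minus flox averaged over oxygen for members of the gene lists, without the Fos class in the model on the x axis and with it on the y axis; the dashed line marks equal values and colours mark gene groups. Early factors (red) shift down towards 0 on the y axis, while Ptgs2 and Csf3 move away from 0.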

How the data were processed

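RNA-seq libraries of brain endothelial cells, made with a stranded mRNA kit from RNA with an integrity number above 8 per the labels' protocols, were analysed from 1 table of 18 columns. The authors deposited read counts per gene, which were used here, and RPKM values, which served in 1 alternative fit. Reads were aligned with HISAT2 to GRCm39 and edgeR was used, per the submitters' processing notes. Versions, the counting tool and its strand setting are not given in the sources used here, so a gene and its antisense neighbour cannot be told apart. Symbols came from GENCODE M21, which matched 52029 of 57010 gene IDs, and unmatched IDs held 0.723% of counts.

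Libraries were classed by Fos at 3000 CPM. In R 4.3.3, edgeR 4.0.16 was run with TMM scaling, its default expression filter (17531 genes kept), robust quasi-likelihood fits and Benjamini-Hochberg adjustment at 0.05. Fits had the 4 groups as covariates, or added an interaction of class with genotype or oxygen, and were tested on simulated data. Alternatives used DESeq2 1.42.0, limma 3.58.1 on log2(RPKM + 0.1), other scalings, filters, covariates and subsets, and each library left out. The members and the gene lists were chosen with earlier results of these data known. The rule for named genes took the 8 highest and 8 lowest called differences that had the same sign in the 4 groups, among named genes whose mean log2 CPM was 1 or more, up to 4 called members of each list by smallest p, up to 5 genes per direction of an interaction, up to 10 list members whose KO minus flox call changed with the class, and the 10 genes most and 5 least like Fos. Other list members, including those not called, and chaperones beyond the rule were named after their values were seen. Promoter sequences are from RefSeq on GRCm38.p6, another build than that of the counts. Totals of 17931197 to 31193333 counts per library limit the precision of scarce transcripts such as Il6, Csf3 and Gm20005.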

Additional observations from a re-analysis of the deposited data

Results flagged for a closer look

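In 76 checks of 19 genes in the 4 groups, 15 values, from 5 libraries, stood far from the others of their group, where about 5% of such checks do so by chance. Of these, 11 were in hypoxia KO 1, the single low Fos library among 5 hypoxia KO libraries. They include Fos and genes chosen because they follow it, so they count 1 known library repeatedly and are not set against that rate. Its Fos was 492 CPM against 4161 to 4717 CPM in the other 4, its Fosb 259 CPM, its Junb 247 CPM and its Atf3 108 CPM. Egr1 stood at 461 CPM, Nr4a1 at 471 CPM, Ier2 at 182 CPM and Dusp1 at 433 CPM in the same library. Klf2 was 887 CPM, Klf4 903 CPM and Icam1 137 CPM there. All 11 values lay below the other hypoxia KO libraries.

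Hspa1a was 902 CPM in hypoxia KO 4, below the rest of its group, and 9296 CPM in normoxia flox 1, above the rest of its group. Vcam1 was 465 CPM in hypoxia flox 2, the high Fos library of its group. Gapdh was 923 CPM in normoxia KO 4, a library with neuronal RNA.

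For 4 genes the high minus low difference was of another size in KO than in flox by a test of the interaction. It was -2.23 for Hspe1, -2.37 for ENSMUSG00000121177, -2.47 for Gm48565 and -7.21 for Gm20005 on the log2 scale, where the last depends on the prior count because most high KO libraries were at 0.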

How the results depend on the processing

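The number of genes called between high and low libraries, 4431, was 660 in normoxia alone, 962 in hypoxia alone and 68 in flox alone, where fewer libraries entered the fit. It ran from 3006 to 5244 as each library was left out. With the replicate number as a block it was 1484, of which 1443 were among the 4431. Same-numbered KO and flox libraries correlated at 0.579, 0.294 and 0.847 in normoxia and at 0.158, 0.0403, -0.183 and -0.339 in hypoxia. Every pair was thus over 0.1 in normoxia and 3 of 4 were not in hypoxia. The 0.847 was between normoxia flox 4 and normoxia KO 4, the 2 libraries with neuronal RNA. The part of that RNA in the correlation was not tested. The labels do not say that numbers mark a shared litter or day, and pairing within normoxia was not settled. Under that block KO minus flox called 3990 genes and the interaction with genotype 0. That interaction called 41 genes with DESeq2, 25 without the 3 libraries that held both Xist and Y-linked counts, 0 in either oxygen condition alone and 1 to 6 as each library was left out. The cause was not tested. The interaction with oxygen called 0 under each alternative and 0 to 0 as each library was left out. KO minus flox called 4442 to 7144. The share of high libraries differed by 41.4 to 55.7 percentage points between genotypes and by 5.56 to 18.1 between oxygen conditions. The arterial gene Efnb2, called higher, was at -0.15 with no group covariate. The astrocyte gene Ntsr2, called lower, was at 0.024 without the 2 neuronal libraries and 0.22 without those 3, and the neuronal gene Gad2 at 0.62 without those 3. Of 122 named genes called between the classes, 8 had the same call under every alternative and 3 changed sign under some. The oxygen difference in shares was -1.59 percentage points without the 2 neuronal and -11.1 without those 3 libraries.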
